A study of Schizosaccharomyces pombe with 4 samples.

Results

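Divergent noncoding RNAs (ncRNAs) of fission yeast were examined together with the protein-coding genes whose promoters they share. An annotated ncRNA was taken as divergent when its 5′ end lay within 500 nt of the 5′ end of a protein-coding gene on the other strand, with the transcripts pointing away from each other. An ncRNA that overlapped a protein-coding gene on the other strand by 50 nt or more was not taken, and SPNCRNA.98, SPNCRNA.103, SPNCRNA.214 and SPNCRNA.1343 were left out. Apart from these IDs, left out by name, the choice used positions and no measured value, though earlier results of these data were known. It gave 263 of the 1522 annotated ncRNAs, 118 on chromosome I, 102 on chromosome II and 43 on chromosome III, paired with 248 genes. The remaining ncRNAs, which take in the IDs left out, were 917 antisense to a gene and 342 others, called other intergenic below. Of these 342, 154 shared no nucleotides on their strand with another annotated unit.

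A promoter is a nucleosome-poor stretch of DNA on which RNA polymerase II (RNAPII) assembles, and it can be read in both directions. The transcript made in the reverse direction of a gene is often short-lived, because noncoding transcripts are ended early and handed to the nuclear exosome or to the cytoplasmic exonuclease Xrn1/Exo2. A few noncoding transcripts, such as the RNA of RNase MRP, are stable components of enzymes. Sequencing the RNA still held by the polymerase detects both kinds before decay.

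The study profiled nascent transcription in *S. pombe* by NET-seq, which sequences RNA 3′ ends recovered with RNAPII. All libraries came from the wild-type (WT) strain YAM2492, genotype h- rpb3-flag::natMX6, in which the RNAPII subunit Rpb3 carries a FLAG tag, grown exponentially in YES, a rich medium. IP denotes nascent RNA co-immunoprecipitated with Rpb3-FLAG (n = 2), and input denotes total RNA put through the same library construction without that step (n = 2). IP and input libraries of the same number came from 1 biological sample, there was no second genotype, and no untagged strain was used here. The IP libraries held an implied 7100000 and 7117477 reads and the input libraries 9082385 and 9823089 reads. Levels are in RPKM (reads per kilobase of unit, scaled to a common library size) rebuilt from the deposited signal, where 3 reads on 1 kb came to between 0.305 and 0.423 RPKM. The divergent ncRNAs took 0.325% and 0.331% of the reads of the IP libraries, against 0.0686% and 0.110% of those of the input libraries. In a bulk culture, fewer cells making a transcript and less transcript per cell cannot be told apart.

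The divergent ncRNAs were between 56 and 5123 nt long, with a median of 728 nt, and 23 were under 200 nt. Their 5′ ends lay at a median of 135 nt from that of the gene (quartiles 54.5 and 251 nt). In 28 pairs the heads overlapped, with a lowest distance of -47 nt. A total of 14 genes had more than 1 divergent ncRNA, which involved 29 ncRNAs, and *rga5* had 3. Members of such groups overlap one another and are not independent. Of the 263, 142 (54.0%) shared nucleotides on their own strand with another annotated unit, 52 of them with a protein-coding gene, 74 with a XUT (an Xrn1-sensitive unstable transcript) and 54 with another ncRNA. The remaining 121 did not. How the authors assigned a read that falls in several units is not stated, so values of units that share nucleotides may contain the same reads.

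Stretches of the shared promoters are shown for the pairs on which the results turn, taken from the RefSeq genome ASM294v3. Each is written 5′ to 3′ on the strand of the ncRNA and ends at the base before the ncRNA starts, so that the gene lies to the left and reads the other strand. Capitals mark matches, on either strand, to the 9 motifs searched. These were the TATA box TATAAA, the HomolD box CAGTCACA of ribosomal protein promoters and the HomolE box CCCTACC that often stands beside it. ACGCGT is bound by the G1/S factor MBF, TGACGT is the core of the site of the stress factor Atf1, and GTAAACA is bound by forkhead factors. The remaining motifs were CCAAT, the stress response element CCCCT and GATAA, which GATA factors bind. Where TTTATAAA is in capitals, matches to TATAAA on both strands overlap. The first set holds the pairs in which the ncRNA stood far above its gene. SPNCRNA.82 is at chrI:1234251-1234450, strand +, SPNCRNA.942 with *ppc89* at chrI:3850922-3851023, strand +, and SPNCRNA.491 with *ctp1* at chrIII:1360261-1360322, strand +.
SPNCRNA.82: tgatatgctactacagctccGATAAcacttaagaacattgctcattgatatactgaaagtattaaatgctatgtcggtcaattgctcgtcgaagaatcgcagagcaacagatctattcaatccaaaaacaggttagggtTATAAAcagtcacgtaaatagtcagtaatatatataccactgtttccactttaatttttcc
SPNCRNA.942: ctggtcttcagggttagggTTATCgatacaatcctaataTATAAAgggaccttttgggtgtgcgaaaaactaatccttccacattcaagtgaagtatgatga
SPNCRNA.491: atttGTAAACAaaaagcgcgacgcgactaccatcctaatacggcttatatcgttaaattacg

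The second set holds pairs in which the share of the ncRNA in IP and in input differed by both tests used below. SPNCRNA.530 with *gid4* is at chrI:1966636-1966786, strand minus, SPNCRNA.1472 with SPBC3H7.04 at chrII:1877095-1877294, strand +, SPNCRNA.1624 with *rps1801* at chrII:3620470-3620577, strand +, and SPNCRNA.756 with *rlp7* at chrI:1712706-1712783, strand minus. The stretch before SPNCRNA.1472 contains a proline tRNA gene, SPBTRNAPRO.05, which ends 3 nt before the ncRNA starts.
SPNCRNA.530: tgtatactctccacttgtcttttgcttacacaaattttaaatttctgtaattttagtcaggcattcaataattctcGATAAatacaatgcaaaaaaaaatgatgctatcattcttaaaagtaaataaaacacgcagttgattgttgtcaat
SPNCRNA.1472: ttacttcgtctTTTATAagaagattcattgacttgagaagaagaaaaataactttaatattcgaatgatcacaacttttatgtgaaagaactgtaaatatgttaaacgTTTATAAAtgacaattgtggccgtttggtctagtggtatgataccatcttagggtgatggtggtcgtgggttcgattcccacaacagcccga
SPNCRNA.1624: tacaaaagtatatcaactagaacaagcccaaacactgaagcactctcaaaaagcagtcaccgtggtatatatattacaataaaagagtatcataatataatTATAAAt
SPNCRNA.756: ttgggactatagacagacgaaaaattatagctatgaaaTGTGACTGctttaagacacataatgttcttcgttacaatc

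The third set holds promoters of highly transcribed or well-known genes whose divergent ncRNA stood far below the gene. SPNCRNA.1355 with *rpl2501* is at chrII:413410-413461, strand minus, SPNCRNA.173 with *rps2202* at chrI:1512407-1512456, strand +, SPNCRNA.941 with *pyk1* at chrI:3846676-3846747, strand +, SPNCRNA.1120 with *ght8* at chrIII:230547-230599, strand +, and SPNCRNA.1154 with *wee1* at chrIII:721569-721768, strand minus.
SPNCRNA.1355: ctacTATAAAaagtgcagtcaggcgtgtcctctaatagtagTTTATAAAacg
SPNCRNA.173: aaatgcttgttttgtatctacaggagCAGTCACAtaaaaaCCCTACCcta
SPNCRNA.941: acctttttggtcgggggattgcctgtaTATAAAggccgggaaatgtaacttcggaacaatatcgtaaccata
SPNCRNA.1120: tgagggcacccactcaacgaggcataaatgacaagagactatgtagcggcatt
SPNCRNA.1154: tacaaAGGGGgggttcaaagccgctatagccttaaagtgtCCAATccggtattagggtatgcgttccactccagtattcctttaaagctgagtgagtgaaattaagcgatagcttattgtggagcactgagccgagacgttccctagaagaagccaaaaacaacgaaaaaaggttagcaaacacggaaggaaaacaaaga

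The 50 bases between SPNCRNA.173 and *rps2202*, which encodes a ribosomal protein of the small subunit, held a HomolD and a HomolE box, both read on the strand of the ncRNA. The stretch of 78 bases between SPNCRNA.756 and *rlp7*, a gene for a ribosome biogenesis factor, held a HomolD box on the strand of the gene. The stretch before SPNCRNA.1120 matched none of the 9 motifs, which says only that these letters were not in that window. In windows of 300 bases (250 before and 50 after the RefSeq 5′ end), TATAAA was present for 43.8% of the 235 divergent ncRNAs with a RefSeq entry, against 43.4% of the 1421 ncRNAs with one. On the gene side TATAAA was in 45.6% of the windows of the 248 paired genes, against 48.0% of those of 5110 genes. The HomolD box was in 2.98% of the divergent ncRNA windows, against 1.90% of all ncRNA windows. The Atf1 core TGACGT was in 12.3% of the windows of divergent ncRNAs and 9.68% of those of paired genes, against 7.67% of all ncRNA windows and 5.91% of all gene windows. The CCCCT element was in 16.9% of paired gene windows, against 10.5% of all gene windows, but in 13.6% of divergent ncRNA windows, against 14.4% of all ncRNA windows. The windows of paired genes and all genes were alike in base composition, with median AT contents of 66.0% and 67.0%. These shares are descriptions, and a match is not a site shown to be bound. The window of an ncRNA and that of its gene often cover the same bases, with RefSeq 5′ ends a median of 196 nt apart. A match there counts for both, so the shares of ncRNA and gene windows are not independent.

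The first question was how much nascent signal the divergent ncRNAs carried. Most were transcribed at a low level, and most were at or near 0 in total RNA. The median was 3.23 and 2.97 RPKM in the IP libraries, against 0 and 0.110 RPKM in input. In reads this was a median of 16 and 15 in IP, against 0 and 1 in input. In IP, 215 of 263 (81.7%) had a mean above 1 RPKM, against 22 (8.37%) in input. In 200 (76.0%) of them each input library held at most 3 reads, so for these the level in total RNA was near what the depth can show. There were 6 divergent ncRNAs without a read in any library.

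Levels in IP repeated well and those in input less so. Between the IP libraries 252 of 263 (95.8%) lay within 2-fold of each other on the RPKM + 1 scale, with a Spearman correlation over the 263 ncRNAs of 0.928 in IP and 0.577 in input. The ncRNAs are not independent replicates, and these correlations are descriptions. The paired genes had medians of 31.9 and 31.2 RPKM in IP, against 1.14 and 2.29 RPKM in input.

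**Figure D1:**
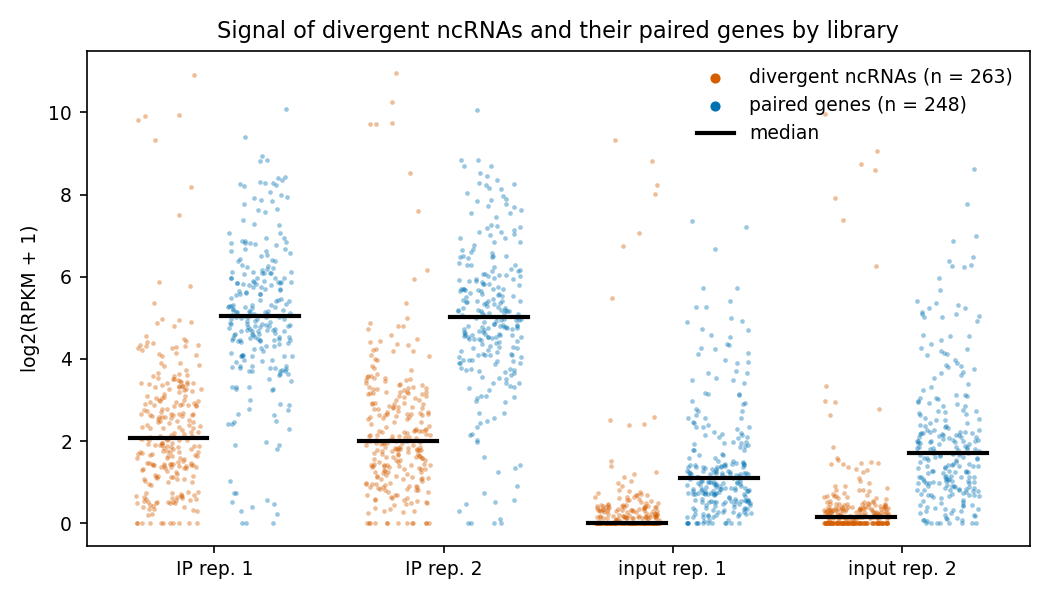
Signal of the 263 divergent ncRNAs (orange) and the 248 paired genes (blue) in each of the 2 IP and 2 input libraries, as log2(RPKM + 1), with 1 point per unit and a black line at the median. In IP the ncRNA medians of 3.23 and 2.97 RPKM sit below gene medians of 31.9 and 31.2 RPKM, and in input most ncRNAs sit at or near 0.

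The level differed with overlap on the same strand. The 142 divergent ncRNAs that shared nucleotides on their strand had a median of 4.63 RPKM in IP and 93.0% were above 1 RPKM. The 121 that shared none had a median of 1.81 RPKM and 68.6% were above 1 RPKM. Those lying over a gene on the same strand had a median of 6.19 RPKM, and those not over one 2.80 RPKM. Overlap with a XUT made little difference to the median, with 3.00 RPKM for the 74 over a XUT and 3.25 RPKM for the 189 not over one. In the separate IP libraries these medians were 3.27 and 3.02 RPKM over a XUT, against 3.22 and 2.91 RPKM not over one. Above 1 RPKM were 91.9% of those over a XUT and 77.8% of those not over one. How much of the differences with overlap is reads counted in both units was not tested.

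Set beside the other ncRNAs, the divergent ones were between the classes. Their median of 3.15 RPKM in IP compares with 3.78 RPKM for the 917 antisense ncRNAs and 2.98 RPKM for the 342 other intergenic ncRNAs. Above 1 RPKM were 81.7% of the divergent, 85.4% of the antisense and 69.9% of the other intergenic ncRNAs. With units that shared no nucleotides the medians were 1.81 RPKM for the divergent, 2.54 RPKM for 353 antisense and 1.21 RPKM for 154 other intergenic ncRNAs. The median paired gene stood at 31.5 RPKM and the median of all other genes at 25.1 RPKM. No test was made of these class differences, since the units are not replicates.

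The second question was how the sides of a shared promoter compared. The ncRNA was the lower side in 238 of 263 pairs (90.5%) by the IP mean, and in 233 pairs it was lower in both IP libraries. It was the higher side in both in 21 pairs. The median difference of log2(ncRNA RPKM + 1) and log2(gene RPKM + 1) was -2.92 (quartiles -3.99 and -1.44), and the separate IP libraries gave -2.85 and -2.98. In 14 pairs the ncRNA was more than 2-fold higher on this scale. Where both sides had at least 10 reads in each IP library (148 pairs), the median was -2.33, and where neither side shared nucleotides (99 pairs), -3.25.

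The levels of the sides were nearly unrelated across pairs. The Spearman correlation over the 263 pairs was 0.101, and 0.137 over the 254 pairs whose ncRNA was under 50 RPKM. For comparison, the 553 divergent pairs of protein-coding genes gave 0.083. All points share the same libraries, and neighbouring pairs can share a gene. In log2, whichever side was higher, the sides differed by a median of 3.07 in the pairs of ncRNA and gene, against 1.04 in gene pairs.

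**Figure D2:**
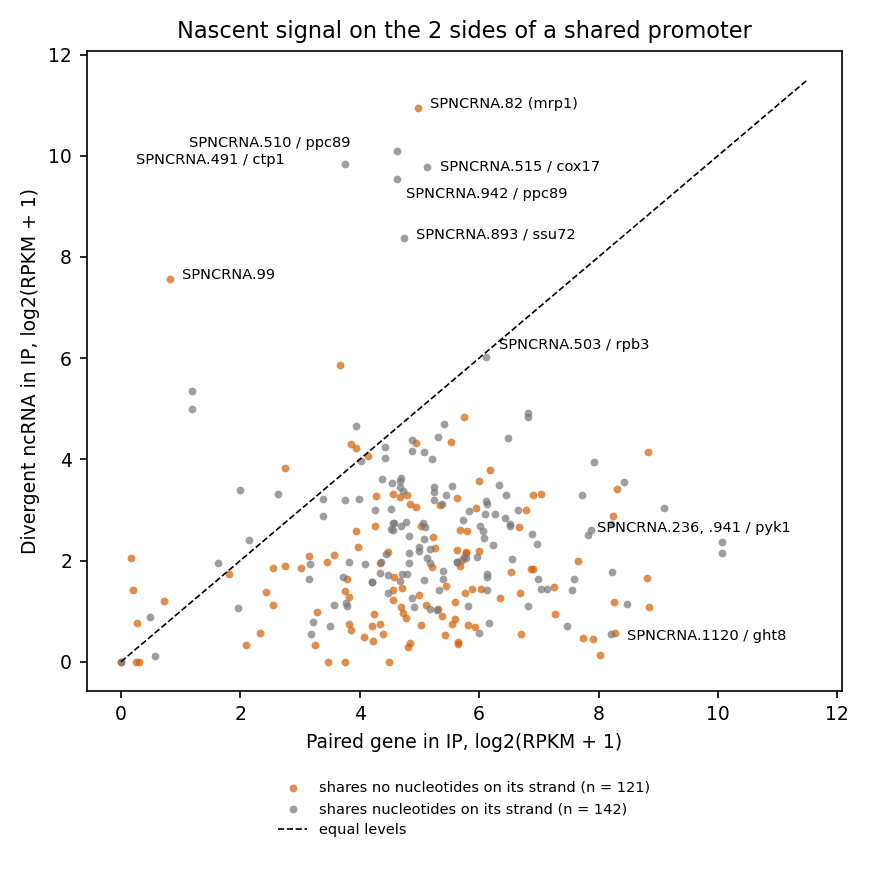
Mean IP signal of each divergent ncRNA (vertical axis) against that of its paired gene (horizontal axis), both log2(RPKM + 1), with ncRNAs that share no nucleotides on their strand in orange (n = 121) and the others in grey (n = 142). Below the dashed line of equal levels lie 238 of the 263 pairs, and a few ncRNAs, led by SPNCRNA.82, stand far above it.

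The distance between the 5′ ends made little difference. With 5′ ends up to 100 nt apart (102 pairs) the median log2 difference of ncRNA and gene was -3.09, at 101 to 250 nt (95 pairs) -2.89 and at 251 to 500 nt (66 pairs) -2.64. The ncRNA medians in these classes were 3.17, 3.82 and 2.34 RPKM, and the gene medians 35.9, 30.9 and 27.0 RPKM. In the pairs in which neither side shared nucleotides (35, 39 and 25 pairs) the differences were -3.25, -3.23 and -3.43, so the order by distance was not kept. Over the 263 pairs, distance had a Spearman correlation of -0.0601 with the level of the ncRNA and -0.0934 with that of the gene.

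**Figure D3:**
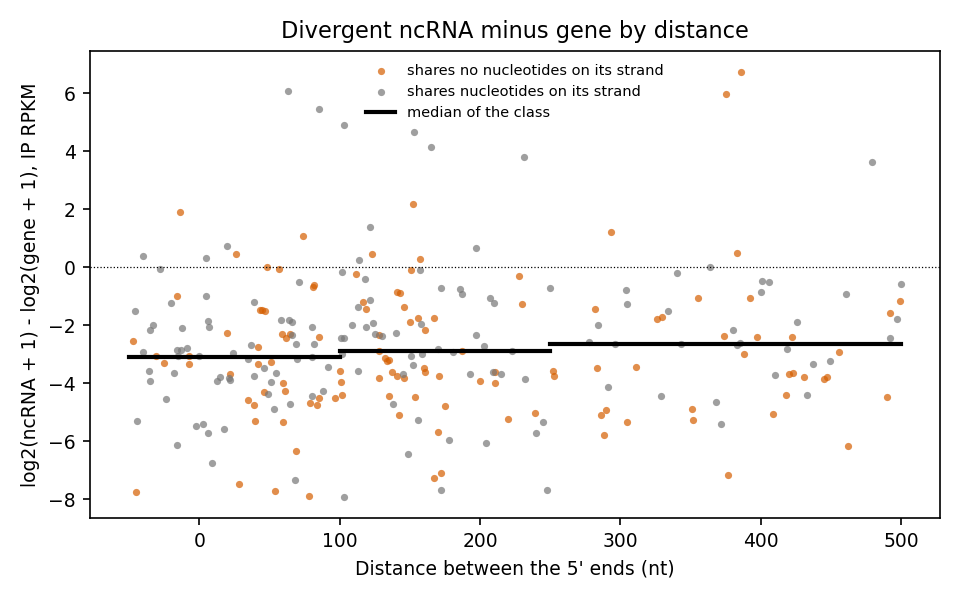
Difference of log2(ncRNA RPKM + 1) and log2(gene RPKM + 1) in IP (vertical axis) against the distance between the 5′ ends in nt (horizontal axis), 1 point per pair, orange where the ncRNA shares no nucleotides on its strand and grey where it does, with a black line at the median of each distance class. The medians of -3.09, -2.89 and -2.64 lie close together beside the spread of the points.

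A handful of divergent ncRNAs carried most of the reads. In IP 9 reached 50 RPKM, and the 7 at or above 100 RPKM held 61.1% and 64.4% of all divergent ncRNA reads in IP, against 92.8% and 91.8% in input. With no untagged strain used here, how much of the IP signal of ncRNAs abundant in input came from mature RNA was not tested. The highest was SPNCRNA.82, *mrp1*, the RNA of RNase MRP, an enzyme that processes ribosomal RNA. It had 1941 and 1984 RPKM in IP, against 640 and 1004 RPKM in input. Its paired gene, SPAC10F6.14c, had 33.8 and 27.0 RPKM in IP, against 1.70 and 2.80 RPKM in input. The ncRNA thus stood far above its gene in all 4 libraries. SPNCRNA.82 shared no nucleotides with another unit, and a snoRNA gene begins 114 nt downstream.

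Both ncRNAs divergent from *ppc89*, the gene of a spindle pole body component, also stood far above their gene. SPNCRNA.510 had 967 and 1220 RPKM in IP, against 256 and 427 RPKM in input. SPNCRNA.942, which overlaps it by 84 nt, had 647 and 839 RPKM in IP, against 132 and 241 RPKM in input. *ppc89* itself had 25.2 and 22.3 RPKM in IP, against 0.632 and 0.962 RPKM in input, so each ncRNA was above the gene in every library.

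SPNCRNA.491 is divergent from *ctp1*, whose product starts the resection of DNA double-strand breaks. It had 986 and 838 RPKM in IP, against 298 and 535 RPKM in input. *ctp1* had 13.0 and 11.8 RPKM in IP, against 0.722 and 0.802 RPKM in input. On the log2(RPKM + 1) scale this was the largest excess of an ncRNA over its gene in IP, 6.09, among pairs with at least 10 reads on each side in each IP library. Over 397 of its 424 nt it overlaps the ncRNA SPNCRNA.1189, named ctp1-antisense-1, on the same strand. In IP SPNCRNA.1189 had 3253 and 2792 reads and SPNCRNA.491 had 2968 and 2529, so the values of these ncRNAs may contain the same reads.

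SPNCRNA.515 is divergent from *cox17*, the gene of a copper chaperone for cytochrome oxidase. It had 896 and 862 RPKM in IP, against 454 and 389 RPKM in input, and overlaps SPNCRNA.1651 by 96 nt. *cox17* had 34.0 and 33.9 RPKM in IP, against 0.967 and 3.28 RPKM in input. This ncRNA was again above its gene in every library. SPNCRNA.893 is divergent from *ssu72*, which encodes a phosphatase acting on the tail of RNAPII. It had 290 and 371 RPKM in IP, against 107 and 167 RPKM in input, and *ssu72* had 28.3 and 23.1 RPKM in IP, against 0.858 and 0.992 RPKM in input. It contains SPNCRNA.219 and a XUT on its strand. Those held few of its reads, since SPNCRNA.893 had 2757 and 3533 reads in IP, the XUT 119 and 106, and SPNCRNA.219 29 and 23.

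The remaining 3 of the 9 were SPNCRNA.99, SPNCRNA.503 and SPNCRNA.530. SPNCRNA.99 had 180 and 194 RPKM in IP, against 4.97 and 9.20 RPKM in input. Its paired gene SPAC9E9.01 had 0.651 and 0.866 RPKM in IP, against 0 and 0.157 RPKM in input. In the deposited table this ncRNA shares no nucleotides, but RefSeq places the 5′ end of *sfp1*, a gene on the same strand, 501 nt further upstream than the table does, so that *sfp1* spans it. In the table *sfp1* had 157 and 171 RPKM in IP, against 2.05 and 4.65 RPKM in input, close to the values of SPNCRNA.99 in IP. Signal of this ncRNA and of the RefSeq *sfp1* transcript cannot be told apart.

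SPNCRNA.503 is divergent from *rpb3*, the gene that carries the FLAG tag in this strain. It had 57.8 and 70.3 RPKM in IP, against 4.75 and 5.86 RPKM in input, and lies inside *mrp49* (36.7 and 38.3 RPKM in IP) on the same strand. *rpb3* had 71.6 and 65.5 RPKM in IP, against 1.18 and 2.25 RPKM in input. In IP the values of ncRNA and gene overlapped. SPNCRNA.530, named sno530 in RefSeq, is divergent from *gid4*, which encodes a substrate receptor of a ubiquitin ligase. It falls outside the rule by which genes were named and was chosen after its values were seen. It had 53.4 and 60.6 RPKM in IP, against 43.9 and 75.9 RPKM in input, and *gid4* had 12.7 and 10.6 RPKM in IP, against 0.465 and 0.602 RPKM in input.

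At the other end stood promoters of metabolic genes with heavy transcription on the gene side. SPNCRNA.941 had 4.0 and 2.89 RPKM in IP beside 1078 and 1060 RPKM for *pyk1*, which encodes pyruvate kinase, a log2 difference of -7.91. SPNCRNA.236, which lies inside SPNCRNA.941, had 5.25 and 3.07 RPKM in IP. SPNCRNA.1501 had 2.59 and 2.22 RPKM in IP beside 295 and 298 RPKM for *pfk1*, the gene of phosphofructokinase. The ncRNA was thus lower by 310 times per length at the *pyk1* promoter (SPNCRNA.941) and by 124 times at that of *pfk1*.

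SPNCRNA.1159 had 1.68 and 1.68 RPKM in IP beside 200 and 175 RPKM for *tal1*, which encodes transaldolase. SPNCRNA.1111 had 9.20 and 5.27 RPKM in IP beside 676 and 417 RPKM for *pmp20*, which encodes a peroxiredoxin-like protein. These 5 pairs had the lowest differences among those with at least 10 reads on each side in each IP library, between -7.91 and -6.05. SPNCRNA.1120 was below that read minimum, with 0.422 and 0.526 RPKM in IP beside 313 and 303 RPKM for the hexose transporter gene *ght8*.

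The third question was whether the divergent ncRNAs were richer in nascent than in total RNA. By limma on log2(RPKM + 1), with p-values adjusted by Benjamini-Hochberg over all 8912 units with a read, 232 of the 257 divergent ncRNAs tested (90.3%) were higher in IP and 0 were lower. This share is near the background, since 92.8% of all units tested were higher in IP and 0.92% lower. The median change of the divergent ncRNAs was 1.77 in log2, against 3.30 for the paired genes, of which 240 of 246 were higher, and 2.90 for all units. No divergent ncRNA was lower at an unadjusted p under 0.05 either, but edgeR with TMM called 13 of 257 lower (5.06%, against 14.7% of all units). DESeq2, which gave an adjusted p for 124 of them, called 14 lower (11.3%, against 16.6% of all units).

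The direction depended on the scaling of the libraries. The library medians of protein-coding genes were on average 3.50 higher in IP than in input on the log2(RPKM + 1) scale. Relative to that shift the divergent ncRNAs had a median of -1.73, with 4 (1.56%) higher and 209 (81.3%) lower by limma, against 9.19% and 54.5% of all units. edgeR's quasi-likelihood test on the recovered reads with TMM scaling put the median at 1.14, against 0.31 for all units. It called 14 divergent ncRNAs (5.45%) higher and 13 (5.06%) lower, against 14.7% of all units in each direction. With most ncRNAs at 0 or 1 read in input, a log2(RPKM + 1) change cannot exceed the IP level itself and understates the change of low units.

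The abundant ncRNAs showed this most clearly. By limma SPNCRNA.82 was higher in IP by 1.29 ± 0.35 (log2, SE; adjusted p = 0.0246), SPNCRNA.510 by 1.71 ± 0.41 (adjusted p = 0.0168) and SPNCRNA.942 by 2.04 ± 0.45 (adjusted p = 0.0133). SPNCRNA.515 (1.06 ± 0.30, limma adjusted p = 0.0277) and SPNCRNA.893 (1.29 ± 0.41, limma adjusted p = 0.0378) passed as well, but not with the replicate block (limma adjusted p of 0.153 and 0.131). SPNCRNA.491 did not pass (1.18 ± 0.43, limma adjusted p = 0.0557). With TMM scaling, edgeR put all 6 lower in IP, between -3.11 for SPNCRNA.515 and -2.03 for SPNCRNA.942 in log2, each past the threshold. Their RPKM was higher in every IP library than in either input library, but by less than that of most genes.

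By the limma test the largest increases were those of SPNCRNA.99, SPNCRNA.532, SPNCRNA.1696, SPNCRNA.142 and SPNCRNA.907. SPNCRNA.99, with the values given above, rose by 4.59 ± 0.39 (log2, SE; limma adjusted p = 0.000852). SPNCRNA.532 had 39.8 and 39.8 RPKM in IP, against 0.878 and 1.16 RPKM in input, and rose by 4.34 ± 0.20 (limma adjusted p = 0.000632). It overlaps SPNCRNA.1696, which RefSeq names *nam3*, with 30.4 and 30.9 RPKM in IP, against 0.729 and 0.858 RPKM in input. The gene paired with both, SPBPB2B2.05, was nearly silent, with 1.03 and 1.54 RPKM in IP, against 0 and 0.0929 RPKM in input. IP and input libraries did not overlap for any of these ncRNAs.

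SPNCRNA.142 had 27.1 and 22.8 RPKM in IP, against 0.338 and 0.729 RPKM in input (4.09 ± 0.23, limma adjusted p = 0.000632). It overlaps *mpc2*, the gene of a mitochondrial pyruvate carrier subunit, over 726 nt on the same strand. SPNCRNA.907 had 20.1 and 17.6 RPKM in IP, against 0.281 and 0.260 RPKM in input (3.96 ± 0.17, limma adjusted p = 0.000632). It shares no nucleotides, starts 26 nt from SPAP32A8.02 and stood above that gene, which had 12.4 and 14.7 RPKM in IP, against 0.345 and 0.851 RPKM in input. By edgeR, SPNCRNA.99 (log2 0.69, adjusted p = 0.0942) and SPNCRNA.907 (log2 2.09, adjusted p = 0.0617) did not pass, while the other 3 did.

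In 3 divergent ncRNAs the fitted change was below 0. SPNCRNA.1472 had 3.94 and 1.79 RPKM in IP, against 4.34 and 6.73 RPKM in input (log2 -0.79, limma adjusted p = 0.116), so every input value was above every IP value. With the replicate number as a block it passed as lower (limma adjusted p = 0.0443), and edgeR called it lower (log2 -4.97, adjusted p = 4.84e-08). SPNCRNA.456 had a log2 change of -0.31 (limma adjusted p = 0.265) and passed as lower without input replicate 2 (limma adjusted p = 0.0381), but not with the block (limma adjusted p = 0.0814) or by edgeR (adjusted p = 0.166). A tRNA gene lies 182 nt upstream of SPNCRNA.456. SPNCRNA.530 had a change of -0.02 (limma adjusted p = 0.962), against -4.10 by edgeR (adjusted p = 6.87e-10).

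The fourth question was whether the ncRNA took a smaller or larger share of its pair in nascent than in total RNA. The pair ratio is the difference of log2(ncRNA RPKM + 1) and log2(gene RPKM + 1) within a library, so that library scaling cancels apart from the pseudocount of 1 RPKM. It was compared between IP and input by limma over 931 heads-apart pairs of a noncoding unit and a gene. Of the 257 divergent ncRNA pairs tested, 14 (5.45%) had a higher ratio in IP and 169 (65.8%) a lower one, against 5.16% and 62.7% of all 931 pairs, and the median change was -1.46. On recovered reads, edgeR with ncRNA and gene in 1 model called 27 (10.5%) higher and 19 (7.39%) lower, against 14.1% and 3.11% of all pairs, with a median of 0.53. The general direction therefore differed between the tests, and 5 pairs were called higher and 19 lower by both. The share of all 931 pairs called by both was not computed. These counts hold overlapping ncRNAs at the same gene. Those at *rps1801* are among the pairs called higher, and those at *rga5* and *ppc89* among the pairs called lower.

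The tests disagreed in both groups of pairs, and by more where the ncRNA had few input reads. In 194 pairs with at most 3 ncRNA reads in each input library, the median change was -1.67 by limma and 0.72 by edgeR. In these limma called 136 lower, and edgeR called 4 lower and 18 higher. In the 63 pairs with more ncRNA reads, the medians were -1.07 and 0.07, with 33 lower and 6 higher by limma, and 15 lower and 9 higher by edgeR. All 931 pairs were not split in this way, so these counts have no background beside them. For a pair with an ncRNA at 0 in input the pseudocount of 1 RPKM sets the input ratio. For most divergent ncRNAs the direction was thus not measurable at this depth.

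**Figure D4:**
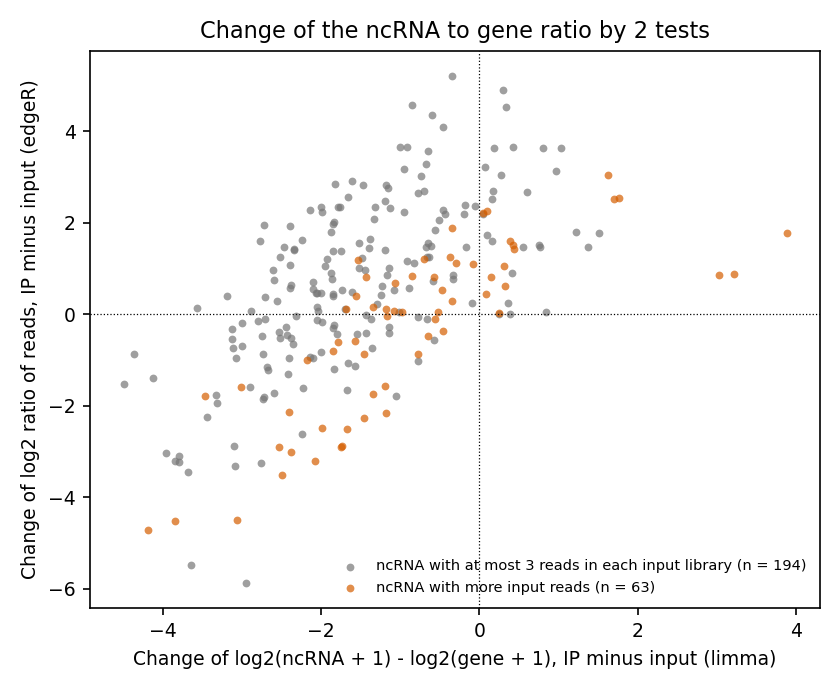
Change of the ncRNA to gene ratio, IP minus input, for 257 pairs, by limma on log2(RPKM + 1) (horizontal axis) and by edgeR on reads (vertical axis, log2), grey where the ncRNA had at most 3 reads in each input library (n = 194) and orange otherwise (n = 63). The grey points have a median of -1.67 on the horizontal and 0.72 on the vertical axis, so many lie to the left of 0 and above it.

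A total of 10 pairs had at least 10 reads on each side in each input library. Here limma called all 10 lower in IP (median -1.87) and edgeR called 9 lower and 0 higher, with every fitted change below 0 (median -2.88). The exception was SPNCRNA.1600 with *csi1* (edgeR log2 -0.87, adjusted p = 0.143). Over all 931 pairs, without this read filter, limma called 62.7% lower and edgeR 3.11%, and the shares with the filter were not computed. The 10 are not independent, since SPNCRNA.510 and SPNCRNA.942 overlap and share *ppc89*. SPNCRNA.503, SPNCRNA.511, SPNCRNA.1259 and SPNCRNA.1463 overlap *mrp49*, *mpg1*, *tpx1* and *sce3* on their own strand. Requiring input reads picks ncRNAs that are abundant in total RNA, so the direction of these 10 is not independent of how they were chosen.

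For *mrp1* (SPNCRNA.82) the ratio of ncRNA to gene RPKM was 57.4 and 73.4 in IP, against 377 and 358 in input. This was a lower ratio in IP by both tests (limma -1.99 ± 0.35, adjusted p = 1.32e-07, and edgeR -2.49, adjusted p = 1.01e-16). SPNCRNA.491 and *ctp1* had ratios of 75.7 and 71.0 in IP, against 412 and 668 in input (limma -1.74 ± 0.35, adjusted p = 3.45e-06, and edgeR -2.87, adjusted p = 6.08e-13). SPNCRNA.510 and *ppc89* had ratios of 38.4 and 54.8 in IP, against 405 and 444 in input. In each of these pairs the IP and input ratios did not overlap. With a pseudocount of 10 RPKM the limma change was -0.44 for SPNCRNA.82 and no longer passed, and was 0.11 for SPNCRNA.491 and 0.0427 for SPNCRNA.510.

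SPNCRNA.503 and *rpb3* had ratios of 0.807 and 1.07 in IP, against 4.03 and 2.60 in input (limma -1.34 ± 0.28, adjusted p = 7.32e-06, and edgeR -1.75, adjusted p = 0.000921). SPNCRNA.1259 and *bxi1*, which encodes a BAX inhibitor homologue, had ratios of 0.116 and 0.108 in IP, against 1.84 and 3.03 in input, a pair named after its values were seen. This ncRNA overlaps the peroxiredoxin gene *tpx1* by 9 nt on its own strand. SPNCRNA.1259 was thus below its gene in both IP libraries and above it in both input libraries.

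**Figure D5:**
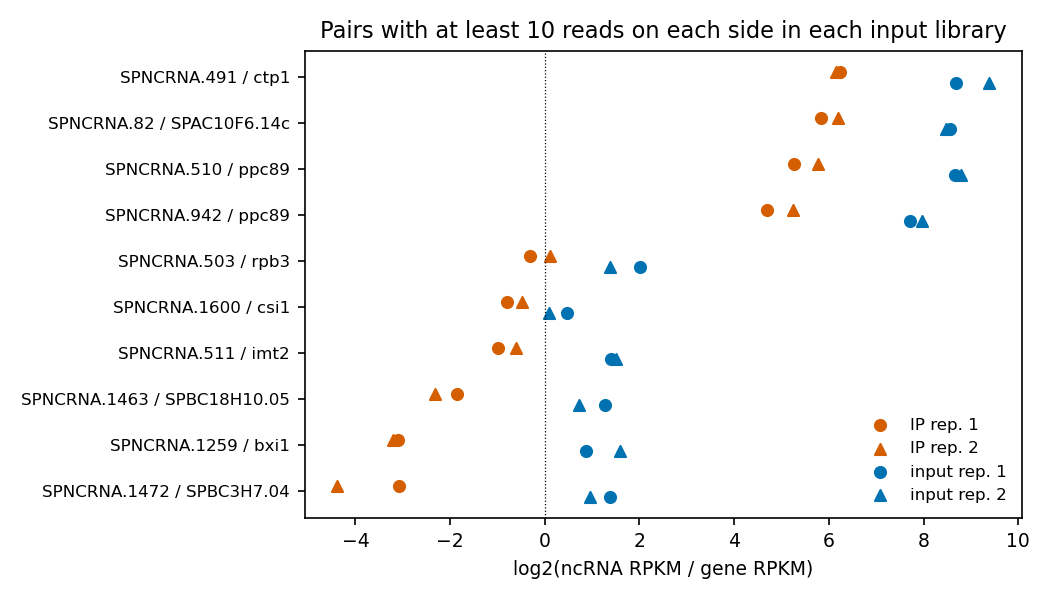
Log2 ratio of ncRNA to gene RPKM in each library for the 10 pairs with at least 10 reads on each side in each input library, ordered by their IP mean, with IP in orange and input in blue, and circles for replicate 1 and triangles for replicate 2. In every pair both IP points lie to the left of both input points.

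The largest decreases by limma were mostly pairs with an almost silent ncRNA. SPNCRNA.387 with *nif1* (-4.50), SPNCRNA.1154 with *wee1* (-4.37, the gene of the mitotic inhibitor kinase) and SPNCRNA.1120 with *ght8* (-4.13) had between 2 and 5 reads in each IP library, against 0 or 1 in input. edgeR did not call them (adjusted p of 0.831, 0.776 and 0.733). In IP *wee1* had 61.4 and 58.1 RPKM, against 0.626 and 1.06 RPKM in input. SPNCRNA.1519 with *rga5* fell by 3.97 by limma and by 3.04 by edgeR (adjusted p = 7.31e-15 by limma and 0.0472 by edgeR), on 12 and 12 ncRNA reads in IP, against 2 and 2 in input.

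SPNCRNA.1472 with SPBC3H7.04 was the 1 pair among these 5 with at least 10 reads on each side in every library. Its ratio was 0.118 and 0.0479 in IP, against 2.61 and 1.93 in input (limma -4.18 ± 0.35, adjusted p = 3.06e-29, and edgeR -4.72, adjusted p = 2.04e-27). The tRNA gene that ends 3 nt before it had 15 and 10 reads in IP, against 33 and 56 in input, and SPNCRNA.1472 had 22 and 10 reads in IP, against 31 and 52 in input. Both were thus higher in input, in reads. The part of SPNCRNA.1472 covered by a XUT held 6 and 1 reads in IP, against 0 and 0 in input, so the input reads were outside it. The part of the tRNA in this result was not tested.

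The largest increases of the ratio by limma were those of SPNCRNA.99 (3.88), SPNCRNA.532 (3.22), SPNCRNA.1696 (3.03), SPNCRNA.426 (1.76) and SPNCRNA.1624 (1.70). The first 3 have genes with at most 1 read in each input library, and edgeR did not call them (adjusted p of 0.703, 0.877 and 0.877). The last both lie at the *rps1801* promoter, overlap each other and were called by both tests. SPNCRNA.1624 had 28.4 and 27.0 RPKM in IP, against 0.360 and 1.77 RPKM in input. *rps1801*, which encodes a ribosomal protein, had 112 and 113 RPKM in IP, against 18.0 and 31.6 RPKM in input. The ratio rose by 1.70 ± 0.48 by limma (adjusted p = 0.000996) and by 2.53 by edgeR (adjusted p = 1.29e-13). For both ncRNAs the limma call was lost without IP replicate 1 (1.65 for SPNCRNA.1624 and 1.71 for SPNCRNA.426), without IP replicate 2 (1.74 and 1.81) and with a pseudocount of 0.1 RPKM (limma adjusted p of 0.0597 and 0.0611), and with a pseudocount of 10 RPKM the fitted changes were -0.0723 and -0.0233.

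The other pairs called higher by both tests fall outside the naming rule and were named after their values were seen. SPNCRNA.756 had 16.2 and 17.4 RPKM in IP, against 0.204 and 0.754 RPKM in input, on 62 and 67 reads, against 1 and 4. *rlp7* had 448 and 456 RPKM in IP, against 101 and 127 RPKM in input. The ratio rose by 1.63 ± 0.63 by limma (adjusted p = 0.0157) and by 3.05 by edgeR (adjusted p = 5.01e-07), and this ncRNA shares no nucleotides. The remaining pairs, SPNCRNA.351 with *naa25* and SPNCRNA.1365 with *cti6*, rose by 0.97 and 0.80 by limma (adjusted p = 0.0135 and 0.0177), and both ncRNAs share nucleotides on their strand. SPNCRNA.530 with *gid4* was called lower by both tests, by limma with -3.06 ± 0.27 (adjusted p = 7.41e-27).

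The pairs were also grouped by the function of the gene. Over 9 lists, 17 of 249 listed genes (6.83%) were paired, against 248 of all 5129 genes (4.84%). They had 19 divergent ncRNAs, of which 18 had a lower mean in IP than their gene. By limma 15 of the 19 were higher in IP than in input, where 92.8% of all units were. The exception to the lower level was SPNCRNA.491 at *ctp1*, the 1 paired gene of 14 targets of MBF, the factor that drives G1/S transcription. SPNCRNA.491 was not called higher in IP by limma. No paired gene was among 10 histone or 4 phosphate response genes, lists too short to set a count of 0 apart from the 4.84% of all genes. Of a list of 11 transcription factors and other regulators 1 was paired, *mei2*, a master regulator of meiosis and not a transcription factor. Its ncRNA SPNCRNA.993 was at 0.260 RPKM in IP beside 3.28 RPKM for the gene.

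Among 141 cytosolic ribosomal protein genes, 5 had a divergent ncRNA, with 6 ncRNAs in all. These had a median of 12.6 RPKM in IP (0.462 to 29.1), beside a gene median of 177 RPKM. All 6 were higher in IP by limma, where 92.8% of all units were. SPNCRNA.173 had 18.1 and 11.0 RPKM in IP, against 0 and 0 RPKM in input, beside 252 and 232 RPKM in IP for *rps2202*. SPNCRNA.1355 had 11.1 and 10.4 RPKM in IP, against 0 and 0.302 RPKM in input, beside 339 and 350 RPKM in IP for *rpl2501*. It overlaps *cys2* by 61 nt on its strand. Of the 6 ratios, limma called 2 higher and 1 lower in IP, where 5.16% and 62.7% of all pairs were, and edgeR called 4 higher and 0 lower, where 14.1% and 3.11% were.

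Of 17 glycolysis and fermentation genes, *pyk1* and *pfk1* had divergent ncRNAs, 3 in all, with the values given above, and all 3 were higher in IP by limma. Of 25 heat shock and stress genes 5 were paired (*gpx1*, *srx1*, *ssc1*, *sti1* and *tpx1*), with a median ncRNA level of 1.17 RPKM in IP beside a gene median of 47.5 RPKM. Of their 5 ncRNAs limma called 4 higher in IP. Of the 5 ratios limma called 3 lower and 0 higher in IP, near the 62.7% and 5.16% of all pairs, and edgeR 1 higher and 0 lower, where 14.1% and 3.11% were. The highest, SPNCRNA.1260 at *tpx1*, had 6.39 and 3.73 RPKM in IP, against 0 and 0.450 RPKM in input, and overlaps *bxi1* on its strand. Of 14 genes of RNA decay and termination 1 was paired, *set2*, which encodes a histone H3 methyltransferase. SPNCRNA.268, 20 nt from it, had 5.03 and 10.04 RPKM in IP, against 0 and 0 RPKM in input, beside 39.7 and 39.9 RPKM in IP for *set2*. Of the hexose transporter and glucose-repressed list 2 of 13 genes were paired, *ght3* and *ght8*, and their ncRNAs were at 0.0802 and 0.474 RPKM in IP.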

How the data were processed

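Deposited values were a signal, normalized read counts per annotated unit and strand. The authors trimmed adapters, kept 50-nt reads with 1 mapping position by Bowtie 0.12.8 (2 mismatches) on ASM294v2, and scaled each library by the number of such reads. Dividing by the value of 1 read gave whole numbers for 100.0% of values in every library (tolerance 0.001), so reads were recovered. RPKM used a common factor anchored to 7100000 reads in IP replicate 1, so absolute levels rest on that anchor. Of 9111 units, the 8912 with a read were tested by limma 3.58.1 (trend) on log2(RPKM + 1), at a Benjamini-Hochberg adjusted p of 0.05. Alternatives were edgeR 4.0.16 and DESeq2 1.42.0 on recovered reads, other pseudocounts, a level filter, centring, quantile normalization, a replicate block and leaving out libraries. The scripts were tested on simulated data with more reads than most divergent ncRNAs had in input. No general shift between IP and input was simulated, so that test does not cover the low input reads met here.

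Sequences were read from RefSeq ASM294v3 by the coordinates of its own annotation, with 235 of 263 divergent ncRNAs matched by ID. In 231 of these the ncRNA coordinates equalled those of the table, but only 11 of 248 gene coordinates did, so each stretch was kept outside the gene in both annotations and to at most 200 bases.

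IP and input of the same number came from the same biological sample by the protocol. Deviations of same-numbered libraries from their group means had correlations of 0.154 over protein-coding genes, 0.364 over the 540 of them with at least 100 reads in each input library, 0.232 over the paired genes and -0.0054 over the divergent ncRNAs. With 2 libraries per group, p-values measure the spread between these samples only. The ± values are standard errors of the limma fit, which rest on the spread between libraries. The read floors concern counting only. Named were the 8 highest in IP, the 5 highest and 5 lowest ratios in IP (at least 10 reads), the 5 highest in input, the 5 largest changes of each kind and direction past the threshold, and up to 10 from the gene lists. The members and lists were chosen with earlier results of these data known.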

Additional observations from a re-analysis of the deposited data

How the results depend on the processing

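Of 126 recomputed summary values, 69 stayed within the limits set for them, 54 moved and 3 reversed. Values of named ncRNAs were recomputed for IP against input (largest increases) and for the pair ratio (highest in IP and largest ratio changes). Of these 231 values, 202 kept their call, 24 lost it and 5 reversed. They leave out IP against input for SPNCRNA.82, SPNCRNA.510, SPNCRNA.942, SPNCRNA.491, SPNCRNA.515 and SPNCRNA.893, where the sign of each changed with edgeR. For IP against input, the count of divergent ncRNAs higher (232) was 4 after centring on the protein-coding median, 20 with quantile normalization, 14 with edgeR, 9 with DESeq2 (of 124 tested), and 98 without ncRNAs that share nucleotides. The count lower (0) was 209, 15, 13 and 14 under the same 4 scalings, 1 with the replicate block and 0 to 1 leaving out a library. The median change (1.77) was -1.73, -0.0521, 1.14 and 0.51 under those scalings, 3.95 and 0.37 with pseudocounts of 0.1 and 10 RPKM, 2.04 with a mean of at least 1 RPKM, and 1.48 without sharing ncRNAs. For the pair ratio, the count higher (14) was 5 and 9 with those pseudocounts, 27 with edgeR, 9 to 12 leaving out a library, 6 without sharing ncRNAs, 0 with at least 10 input reads and 5 by both tests. The count lower (169) was 16 with a pseudocount of 0.1, 19 with edgeR, 84 without sharing, 10 with at least 10 input reads and 19 by both. Leaving out a library gave 117 to 178. The median ratio change (-1.46) was -0.0867 with a pseudocount of 0.1, 0.53 with edgeR and -1.87 with at least 10 input reads. With a pseudocount of 10 the ratio changes of SPNCRNA.510 (0.0427), SPNCRNA.491 (0.11), SPNCRNA.942 (0.34), SPNCRNA.426 (-0.0233) and SPNCRNA.1624 (-0.0723) changed sign. The replicate block left 241 ncRNAs higher and 15 ratios higher and 177 lower. Among the named results it changed the calls of SPNCRNA.1472, SPNCRNA.515 and SPNCRNA.893 for IP against input and of the ratio of SPNCRNA.1111 (limma adjusted p = 0.0355, against 0.0517 without it).

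The percentage above 1 RPKM (81.7) was 65.8 at 2 RPKM, 79.8 to 81.4 leaving out a library, 68.6 without sharing ncRNAs, 83.8 and 80.5 with distances up to 250 and 1000 nt, and 78.7 without those over a gene. The median difference of ncRNA and gene (-2.92) was -3.27 and -1.52 with pseudocounts of 0.1 and 10, -3.25 where neither side shared and -2.33 with at least 10 reads. The percentage of pairs with the ncRNA lower (90.5) was 89.7 to 90.1 leaving out a library, 89.9 where neither side shared, 89.6 up to 1000 nt and 93.3 without the 9 highest ncRNAs. The class medians by distance were -3.25, -3.23 and -3.43 where neither side shared, and leaving out a library gave -3.15 to -3.07, -2.82 to -2.64 and -2.67 to -2.46. The settings by input reads, by both tests, without the 9 highest and without ncRNAs over a gene were chosen after seeing the data. Input depth limits every statement on total RNA, since 200 of 263 ncRNAs had at most 3 reads in each input library. The cause of the changes with scaling was not tested.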

Other observations

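Small structured RNAs lay near few of the divergent ncRNAs. On their own strand, 3 had a tRNA, snoRNA, snRNA or rRNA gene within 100 nt and 9 within 500 nt. These counts concern neighbours and not the divergent ncRNAs themselves, of which RefSeq types 218 of 235 with an entry as lncRNA. SPNCRNA.82 is itself the RNA of RNase MRP, and RefSeq names SPNCRNA.530 sno530. SPNCRNA.1483, divergent from *gid2*, overlaps the snoRNA snoZ30 and had 22.7 and 25.6 RPKM in IP, against 4.21 and 6.80 RPKM in input. SPNCRNA.107 lies 134 nt from a methionine tRNA gene with 109 and 100 reads in IP, against 489 and 324 in input, and was itself at a mean of 0 RPKM in both.

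The pairs were also looked up in the newer RefSeq annotation. Of the 235 divergent ncRNAs with a RefSeq entry, 211 had their 5′ end within 500 nt of that of the same gene, at a median of 196 nt. In RefSeq 31 of the 235 overlap a protein-coding gene on their own strand, and 0 overlap one on the other strand by 50 nt or more.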
